A study of Mus musculus with 18 samples.

Results

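The interferon receptor subunits of a pooled CRISPR knockout library were Ifnar1, Ifngr1 and Ifngr2, 3 of the 76 genes that the library targeted. They were taken as all rows of the read table that carry these gene names, which gave 9 sgRNAs out of 252 (3 sgRNAs per gene, with 24 non-targeting sgRNAs in the library). All 9 passed the filter of a mean of at least 10 reads.

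The library was carried by Ba/F3, a murine pro-B cell line grown with interleukin-3, in a derivative that the labels call sensBa/F3. One population kept the inositol phosphate kinase ITPK1 (ITPK1-WT). The other was a pool of 6 clones with ITPK1 deleted (ITPK1-KO), so it differs from ITPK1-WT cells in clonal origin as well as in ITPK1. After 10 days of culture the populations were stained with CellTrace violet (ITPK1-WT) or yellow (ITPK1-KO), mixed in equal parts and injected into the peritoneum of 8 mice transgenic for hCD89, the human receptor for IgA (20M cells per mouse). Mice 5 to 8 then received anti-hHer2 IgA and mice 1 to 4 received PBS (vehicle), and viable cells were sorted back by dye after 16 h. This gave 16 recovered libraries (4 mice by background and arm), and each population was also sequenced 1 time before injection. Dye, clonal origin and genotype cannot be told apart.

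Each library held 317564 to 808586 reads, and its median sgRNA had 1325.5 to 3310.5 reads. The biological coefficient of variation between mice was 3.17% for ITPK1-WT libraries and 2.83% for ITPK1-KO. All mice shared 1 transduced pool of each background, so p-values measure the spread between mice within that pool. Every vehicle library came from 2.0M sorted cells, and IgA libraries from 0.657M to 2.0M; the part of this in the IgA results was not tested. The read-file names run in 2 series, the first with mice 1 to 5 and the second with mice 6 to 8 and both starting libraries, so mouse 5 was the only IgA mouse in the series of the vehicle mice. Among ITPK1-WT libraries of IgA mice, mouse 6 differed from mice 7 and 8 by more than any other pair of 1 group did (chi-square per degree of freedom 5.33 and 5.62, against 2.25 to 3.35 for all other pairs), and results that change without it are named.

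Interferons are cytokines that restrain viral infection and tumour growth, and they can make cells more prone to die. Type I interferons bind a receptor of IFNAR1 and IFNAR2, which signals through the kinases TYK2 and JAK1. Interferon-gamma, the type II interferon, binds a receptor of IFNGR1, the main ligand-binding chain, and IFNGR2, the chain that brings in JAK2. Both receptors raise genes of cell death, death receptors among them. An sgRNA against a subunit is counted here as a tag of the cells that carry it, so a higher share of its reads means that more of the recovered cells had that cassette. Loss of the receptors was not measured.

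The sgRNAs on which the results turned are shown as deposited, 5′ to 3′, with the 10 bases next to the protospacer-adjacent motif (the seed end of the guide) in capitals. The 3 against Ifnar1 are given because 2 of them carry its difference between backgrounds and the third was rare, and the other 3 because at least 1 comparison separated their groups or passed the test.
Ifnar1 sg-1: acagttgacaTAAACAAGCA
Ifnar1 sg-2: cttctaaacgTACTTCTGGG
Ifnar1 sg-3: tctccatgtaCAAGCCTCAG
Ifngr1 sg-2: ggtattcccaGCATACGACA
Ifngr2 sg-1: agggaacctcACTTCCAAGT
Ifngr2 sg-2: tggacctccgAAAAACATCT
All 9 guides had 20 bases, with a GC content of 35% to 50% against a median of 50% over the library. Ifnar1 sg-1 was the poorest in GC at 35%, and 6 of the 252 library sgRNAs had less. None of the 9 held a run of TTTT. Each differed from every other sgRNA of the library by at least 8 of the 20 bases, so reads of these guides could not be swapped by a few sequencing errors. In the RefSeq annotation of GRCm38.p6, Ifnar1 and Ifngr2 are next to each other, with 0 protein-coding genes between them, and Ifngr1 lies on another chromosome. The files name no genome build, so cut positions are not given. None of the 9 guides matched, on either strand, the promoter windows of the 3 genes (250 bases before to 50 after the start, RefSeq GRCm38.p6).

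Before injection, 8 of the 9 sgRNAs were well represented and Ifnar1 sg-3 was nearly absent. Ifnar1 sg-3 had 45 reads in ITPK1-WT cells, a share of 0.00800% (95% exact binomial interval 0.00584% to 0.0107%). In ITPK1-KO cells it had 68 reads, a share of 0.0132% (0.0102% to 0.0167%). These intervals cover counting error only, since reads without molecular identifiers are not independent molecules.

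This sgRNA was rare in every library. It ranked 6 from the lowest of 252 sgRNAs by mean reads, with 25 to 90 reads per library, which was 1.89% to 3.74% of the library's median sgRNA. Below 5% of the median before injection, a limit set after the values were seen, there were 8 sgRNAs among ITPK1-WT and 9 among ITPK1-KO cells, and 0 of the 24 non-targeting sgRNAs. The other sgRNAs against Ifnar1 were near the middle of the library, with 2461 (sg-1) and 2482 (sg-2) reads in ITPK1-WT cells and 2098 and 2170 reads in ITPK1-KO cells. The summed value of Ifnar1 therefore rests on sg-1 and sg-2, and values for sg-3 have a wide error throughout.

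The 3 sgRNAs against Ifngr1, the ligand-binding chain of the type II receptor, had 2185 to 2558 reads in ITPK1-WT and 2235 to 2664 reads in ITPK1-KO cells before injection. Those against Ifngr2, its signalling partner, had 2228 to 3196 and 1884 to 2924 reads. Ifngr2 sg-2 was the most abundant of the 9 in both backgrounds, at 97.8% (ITPK1-WT) and 103% (ITPK1-KO) of the median non-targeting sgRNA. Summed over 3 sgRNAs, Ifnar1 reached 52.1% of the mean reads of 3 non-targeting sgRNAs when ITPK1 was intact and 50.0% when it was deleted. The same share was 74.6% and 84.1% for Ifngr1, and 86.9% and 85.3% for Ifngr2. With 1 library per background these levels have no replicate check.

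**Figure D1:**
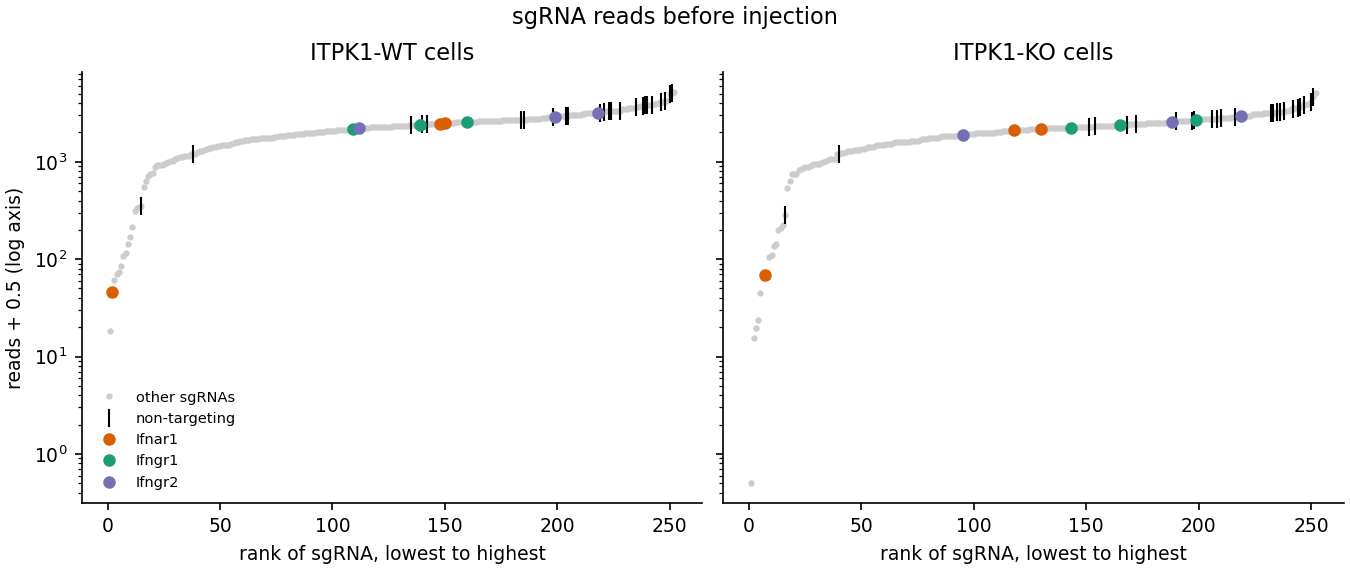
Reads of every library sgRNA before injection (log axis, 0.5 added) against its rank from lowest to highest, in ITPK1-WT (left) and ITPK1-KO cells (right), with the 9 interferon receptor sgRNAs as coloured points and the 24 non-targeting sgRNAs as black ticks. Ifnar1 sg-3, with 45 and 68 reads, sits at the low end, while the other 8 lie in the body of the library.

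IgA was first compared with vehicle in ITPK1-WT cells, which asks whether cells with a guide against a receptor subunit were recovered more or less often after the antibody. Neither the 3 genes nor their 9 sgRNAs passed the test, in a comparison where many other targets did. In this comparison 36.8% of all 76 genes and 27.8% of all 252 sgRNAs passed (edgeR quasi-likelihood test, adjusted p under 0.05 over all features). At an unadjusted edgeR p under 0.05 there were 1 of the 3 genes and 2 of the 9 sgRNAs, beside 33 of all 76 genes and 96 of all 252 sgRNAs.

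Levels are given in CPM, counts scaled to a common library size with TMM factors (a trimmed mean of ratios between libraries), summed over the 3 sgRNAs of a gene. For Ifnar1, the vehicle mice 1 to 4 had 9355, 9378, 9143 and 9091, and the IgA mice 5 to 8 had 9774, 9348, 9266 and 9488 in ITPK1-WT cells. The arms overlapped, with 2 IgA mice above all vehicle mice. The log2 fold change was 0.029 ± 0.024 (SE, n = 4 mice per arm, edgeR adjusted p = 0.345).

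For Ifngr1, the vehicle mice had 13063, 13283, 13075 and 13212, and the IgA mice 13554, 13266, 13649 and 13721. Mice 5, 7 and 8 lay above all vehicle mice and mouse 6 did not. The log2 fold change was 0.037 ± 0.017 (SE, n = 4 per arm, edgeR adjusted p = 0.0886), and without mouse 6 it was 0.052 and passed (edgeR adjusted p = 0.0210). It also passed with DESeq2 size factors or total counts for scaling (0.044 each, edgeR adjusted p = 0.0459 and 0.0461). Over the library 32 genes passed without mouse 6, against 28 with it, and 27 and 28 passed under those scalings.

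For Ifngr2, the vehicle mice had 14798, 14173, 14495 and 14120.2, and the IgA mice 14509, 14663, 14663 and 14809. The arms overlapped, since vehicle mouse 1 was above 3 of the 4 IgA mice. The log2 fold change was 0.022 ± 0.017 (SE, n = 4 per arm, edgeR adjusted p = 0.322).

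Among single guides, Ifngr1 sg-2 and Ifngr2 sg-2 kept the arms apart in ITPK1-WT cells. Overlap was checked for the receptor genes and guides only, so no share over all 252 sgRNAs stands beside this. By the test, 27.8% of all sgRNAs passed here. Ifngr1 sg-2 had 4599, 4719, 4488 and 4583 CPM in vehicle mice and 4893, 4836, 4879 and 4736 in IgA mice. All 4 IgA mice were above all 4 vehicle mice, but the log2 fold change of 0.069 ± 0.031 did not pass (SE, n = 4 per arm, edgeR adjusted p = 0.0876). Ifngr2 sg-2 had 5754, 5641, 5567 and 5683 in vehicle mice and 6003, 5908, 6094 and 5815 in IgA mice. Here too the arms did not overlap, with a log2 fold change of 0.069 ± 0.030 (SE, n = 4 per arm, edgeR adjusted p = 0.0743, and 0.0359 without mouse 6). DESeq2's Wald test called both guides (adjusted p = 0.0409 for Ifngr1 sg-2 and 0.0255 for Ifngr2 sg-2), and edgeR called Ifngr2 sg-2 with DESeq2 size factors (adjusted p = 0.0465) or total counts (adjusted p = 0.0458). Over the library 94 sgRNAs passed without mouse 6, 69 by the Wald test and 66 under each of those scalings, against 70 in the main fit. The 2 other guides of each gene gave 0.014 (Ifngr1 sg-1), 0.026 (Ifngr1 sg-3), −0.0060 (Ifngr2 sg-1) and −0.010 (Ifngr2 sg-3), each smaller than its SE. Ifnar1 sg-1 and sg-2 gave 0.025 ± 0.032 and 0.038 ± 0.032, and the rare sg-3 gave −0.14 ± 0.16 (SE, n = 4 per arm).

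The calls in ITPK1-WT cells depended on what the libraries were scaled to. The 24 non-targeting sgRNAs had a median log2 fold change of −0.059 under IgA in these cells, with 8 lower and 1 higher past the threshold, against a median of −0.00099 over all sgRNAs. Scaled to the summed non-targeting reads, Ifnar1 gave 0.082, Ifngr1 0.089 and Ifngr2 0.074, and all 3 passed (edgeR adjusted p = 0.0177, 0.00126 and 0.00356). On that scale 47.4% of all genes passed, 34 higher and 2 lower, where TMM gave 16 higher and 12 lower. Of the sgRNAs, 3 of 9 passed (Ifnar1 sg-2, Ifngr1 sg-2 and Ifngr2 sg-2) against 30.2% of the library, with 70 higher and 6 lower in all against 35 and 35 under TMM. Whether cells with these guides or cells with non-targeting guides moved cannot be told apart from shares.

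With the read-file series as a covariate, the IgA value rests on mouse 5. The log2 fold changes in ITPK1-WT cells were then 0.074 for Ifnar1, 0.036 for Ifngr1 and 0.0046 for Ifngr2. No p-value is given, since a fit that rests on a single IgA mouse cannot decide whether these values differ from 0.

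**Figure D2:**
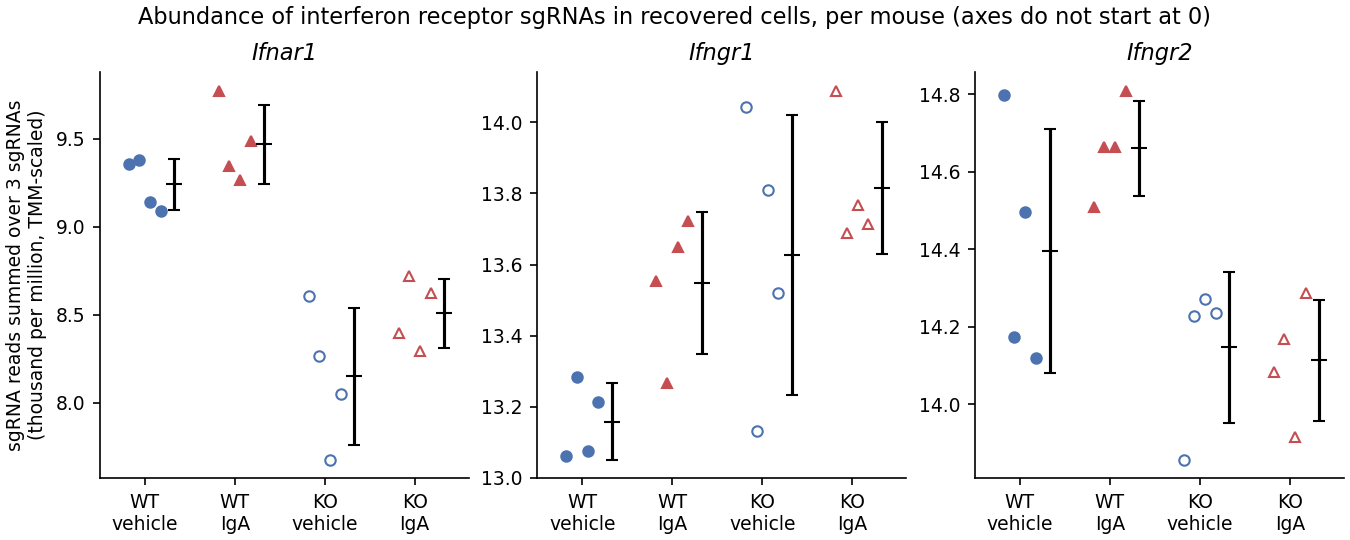
CPM in kilo units (TMM-scaled, summed over the 3 sgRNAs of a gene) for each mouse, by background (filled, ITPK1-WT; open, ITPK1-KO) and arm (circles, vehicle; triangles, IgA), with mean and SD of the 4 mice beside the points. The axes do not start at 0. For Ifnar1 all ITPK1-KO libraries lie below all ITPK1-WT libraries, while vehicle and IgA mice overlap within each background for all 3 genes.

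In ITPK1-KO cells, IgA likewise left the 3 genes and 9 sgRNAs short of the threshold. Here 13.2% of all genes and 10.4% of the 251 sgRNAs tested passed. At an unadjusted p under 0.05 there were 0 of the 3 genes and 2 of the 9 sgRNAs, beside 21 of all 76 genes and 58 of the 251 sgRNAs (edgeR). Ifnar1 had 8607, 8266, 7676 and 8048 CPM in vehicle mice 1 to 4 and 8394, 8722, 8292 and 8621 in IgA mice 5 to 8. Mouse 3 was the lowest and the arms overlapped, with a log2 fold change of 0.061 ± 0.030 (SE, n = 4 per arm, edgeR adjusted p = 0.198).

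Ifngr1 had 14044, 13132, 13810 and 13519.6 in vehicle mice and 14089, 13689.7, 13767 and 13715 in IgA mice, a log2 fold change of 0.024 ± 0.019 (SE, n = 4 per arm, edgeR adjusted p = 0.445). Ifngr2 had 13857, 14228, 14271 and 14235 in vehicle mice and 14082, 14169, 13916 and 14287 in IgA mice, a log2 fold change of −0.0016 ± 0.016 (SE, n = 4 per arm, edgeR adjusted p = 0.929). The arms overlapped for both genes, and for Ifngr2 the value was below its SE and turned to 0.013 when scaled to the non-targeting sgRNAs. On that scale Ifngr1 gave 0.038 (edgeR adjusted p = 0.201).

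The guide with the largest size in ITPK1-KO cells was Ifnar1 sg-1, at 0.091 ± 0.036 (SE, n = 4 per arm, edgeR adjusted p = 0.0964). It passed without mouse 1, at 0.12 (edgeR adjusted p = 0.0180), and on the scale of the non-targeting sgRNAs, at 0.105 (edgeR adjusted p = 0.0457). On that scale it was the 1 of 9 that passed, against 9.96% of the library. The split of sgRNA calls over the library was 14 higher and 12 lower under TMM and 17 and 8 on that scale, and of gene calls 6 and 4 under TMM and 11 and 3. Ifngr1 sg-1 followed at 0.068 ± 0.034 and Ifngr2 sg-1 at 0.066 ± 0.040, and Ifngr1 sg-2 and Ifngr2 sg-2, which had kept the arms apart in ITPK1-WT cells, gave 0.019 ± 0.032 and −0.0092 ± 0.030 (SE, n = 4 per arm). With the read-file series as a covariate, where the IgA value again rests on mouse 5, the genes gave 0.039 (Ifnar1), 0.049 (Ifngr1) and −0.0077 (Ifngr2).

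**Figure D3:**
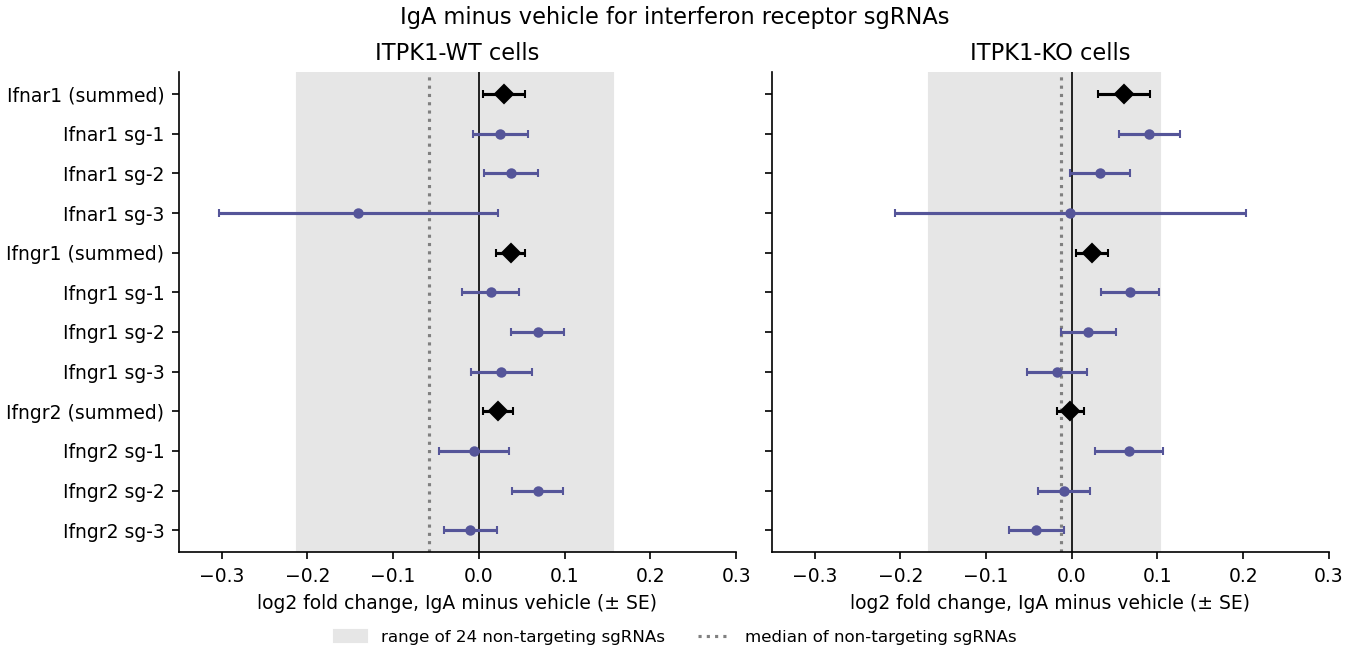
Log2 fold change of IgA over vehicle with its SE (4 mice per arm) for each interferon receptor gene (diamonds, summed reads) and sgRNA (circles), in ITPK1-WT (left) and ITPK1-KO cells (right). The grey band spans the 24 non-targeting sgRNAs, from −0.21 to 0.16 on the left and from −0.17 to 0.10 on the right, and the dotted line is their median. All 9 sgRNA values lie inside the band in both backgrounds.

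The difference of the IgA effect between backgrounds, the question of an epistasis screen, passed the test for none of the 3 genes or 9 sgRNAs. Over the library 6.58% of genes and 3.97% of sgRNAs passed. The difference (ITPK1-KO minus ITPK1-WT) was 0.026 ± 0.040 for Ifnar1, −0.019 ± 0.026 for Ifngr1 and −0.030 ± 0.024 for Ifngr2 (SE, 16 libraries, edgeR adjusted p = 0.764, 0.764 and 0.605). Scaled to the non-targeting sgRNAs the values were −0.0056 for Ifnar1, −0.052 for Ifngr1 and −0.061 for Ifngr2, and none passed (edgeR adjusted p = 0.947, 0.327 and 0.179). Over the library that scale turned 4 higher and 6 lower sgRNA calls into 2 and 7, and 2 higher and 3 lower gene calls into 1 and 4. The sgRNA values ran from −0.084 ± 0.042 for Ifngr2 sg-2, the 1 of 9 at an unadjusted p under 0.05 (0 of the 3 genes), to 0.14 ± 0.26 for the rare Ifnar1 sg-3. At that unadjusted limit the library had 29 of 252 sgRNAs and 10 of 76 genes (edgeR).

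Recovered ITPK1-KO and ITPK1-WT cells were then compared within each arm, where both libraries of a mouse came from 1 peritoneum. Guides against Ifnar1 were scarcer in ITPK1-KO cells in both arms. The Ifnar1 levels listed above show that in vehicle mice ITPK1-KO libraries held 7676 to 8607 CPM and ITPK1-WT libraries 9091 to 9378. In IgA mice the ranges were 8292 to 8722 and 9266 to 9774. The backgrounds did not overlap in either arm. How many of all genes or sgRNAs had backgrounds without overlap was not counted, here or for the guides and genes below. The log2 difference was −0.18 ± 0.028 in vehicle mice (a fold of 0.883) and −0.15 ± 0.028 in IgA mice (a fold of 0.899), with edgeR adjusted p = 9.90e-07 and 1.20e-05 (SE, n = 4 mice per arm). Within mice, Ifnar1 was lower in ITPK1-KO cells in 8 of 8 mice, with log2 differences from −0.10 (mouse 6) to −0.25 (mouse 3).

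Such calls were common in this library. In vehicle mice 47.4% of all genes and 31.7% of all sgRNAs passed between backgrounds, and in IgA mice 44.7% and 34.9%. Scaled to the non-targeting sgRNAs, gene calls went from 17 higher and 19 lower to 11 and 20 in vehicle mice, and from 15 and 19 to 6 and 30 in IgA mice. Of the interferon receptor subunits, 2 of 3 genes and 4 of 9 sgRNAs passed in vehicle mice, and 2 of 3 genes and 2 of 9 sgRNAs in IgA mice. With so few members these counts are read as no result about the receptors as a group. In vehicle mice the called genes had opposite directions (Ifnar1 lower, Ifngr1 higher).

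The 2 well represented guides against Ifnar1 moved alike. Ifnar1 sg-1 had 4605, 4551, 4377 and 4460 CPM in ITPK1-WT and 4189, 3906, 3827 and 3805 in ITPK1-KO libraries of vehicle mice 1 to 4. In IgA mice 5 to 8 it had 4754, 4587, 4541 and 4493 against 4102, 4314, 4142 and 4154. The backgrounds were apart in both arms, with log2 differences of −0.20 ± 0.035 and −0.14 ± 0.034 (SE, n = 4 per arm, edgeR adjusted p = 1.21e-06 and 0.000611). Ifnar1 sg-2 had 4631, 4694, 4657 and 4477 in ITPK1-WT and 4282, 4243, 3770.3 and 4123 in ITPK1-KO libraries from vehicle mice. In IgA mice it had 4923, 4657, 4605 and 4839.97 against 4167, 4284, 4039 and 4364. It too was apart in both arms, with differences of −0.16 ± 0.035 and −0.17 ± 0.034 (SE, n = 4 per arm, edgeR adjusted p = 5.04e-05 and 1.05e-05). For the rare sg-3 the values were −0.15 ± 0.19 and −0.014 ± 0.18, both smaller than their SEs. Averaging log2 values over the 3 guides gives sg-3 equal weight, and in IgA mice the Ifnar1 mean of −0.11 then missed the threshold (limma adjusted p = 0.184). Without sg-3, an alternative chosen after its reads were seen, the mean was −0.16 (limma adjusted p = 0.000385).

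Ifngr1 and Ifngr2 differed less between backgrounds, and in opposite directions. Ifngr1 was higher in ITPK1-KO cells of vehicle mice, by 0.049 ± 0.019 (SE, n = 4 per arm, edgeR adjusted p = 0.0263), and 3 of 4 mice had a positive value, mouse 2 being the exception. This call was lost without mouse 1 (0.031, edgeR adjusted p = 0.223) or mouse 3 (0.040, edgeR adjusted p = 0.140), and when scaled to the non-targeting sgRNAs (0.039, edgeR adjusted p = 0.131). It was also lost in the limma mean over sgRNAs (adjusted p = 0.0509). In IgA mice the value was 0.029 ± 0.018 (edgeR adjusted p = 0.178), and −0.012 when scaled to the non-targeting sgRNAs. Of its guides only sg-2 passed, in vehicle mice, with 4599, 4719, 4488 and 4583 CPM for ITPK1-WT and 5057, 4802, 4809 and 4892 for ITPK1-KO. These did not overlap, with a difference of 0.089 ± 0.032 (edgeR adjusted p = 0.0194), a call that was lost without mouse 1, 3 or 4 (edgeR adjusted p = 0.131, 0.0639 and 0.0740) and under the non-targeting scale (edgeR adjusted p = 0.0563).

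Ifngr2 was lower in ITPK1-KO cells of IgA mice, where all 4 libraries (13916 to 14287 CPM) lay below all 4 ITPK1-WT libraries (14509 to 14809). The difference was −0.055 ± 0.017 (SE, n = 4 per arm, edgeR adjusted p = 0.00666), and it was negative in 4 of 4 mice, from −0.043 to −0.075. No single guide passed there, as sg-1, sg-2 and sg-3 gave −0.051 ± 0.040, −0.054 ± 0.029 and −0.060 ± 0.032. Scaled to the non-targeting sgRNAs, the Ifngr2 difference was −0.096 (edgeR adjusted p = 3.63e-05), and sg-2 (−0.094) and sg-3 (−0.101) passed too, which made 4 of 9 against 32.1% of the library, with 18 sgRNAs higher and 63 lower in all where TMM gave 42 and 46. In vehicle mice the Ifngr2 difference was −0.025 ± 0.017 (edgeR adjusted p = 0.215), and 2 of 4 mice had positive values. Its sg-1 alone passed in that arm, at −0.12 ± 0.041 (edgeR adjusted p = 0.0168), with 3982, 3748, 3660.2 and 3446 CPM for ITPK1-WT and 3271, 3413, 3598 and 3432 for ITPK1-KO. That call rested on mice 1 and 2, since it was lost without mouse 1 (−0.058, edgeR adjusted p = 0.399) or without mouse 2 (−0.11, edgeR adjusted p = 0.0570).

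The libraries from before injection give the same difference as it stood in culture, with no test since each background has 1 library. The answer depended on the reference, since the ratio of the median non-targeting sgRNA to the median of all 252 sgRNAs was not the same in both backgrounds. Relative to the median non-targeting sgRNA, the summed Ifnar1 guides differed by 0.0018 before injection (ITPK1-KO minus ITPK1-WT, 95% counting interval −0.057 to 0.061). After recovery the difference was −0.17 ± 0.067 in vehicle mice and −0.17 ± 0.055 in IgA mice (SD, n = 4 mice per arm), and all 8 mice were below the counting interval of the starting value. That interval leaves out the spread between libraries, and all 8 mice were set against the same starting pair. Relative to the median of all sgRNAs, the starting difference was −0.11 (−0.17 to −0.050), and recovered cells had −0.18 ± 0.049 and −0.17 ± 0.048 (SD, n = 4 per arm). On that scale all 8 mice were still below the starting value, but only 4 of 8 were below its interval. The size after recovery was thus near −0.17 on both scales, while the value before injection differed between them.

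The rare guide decided how Ifnar1 appeared before injection when its guides were averaged rather than summed. Averaged over 3 guides, the ITPK1-KO level of Ifnar1 exceeded the ITPK1-WT level by 0.26 relative to the median non-targeting sgRNA. This came from sg-3, at 0.79 from 45 and 68 reads (95% counting interval 0.23 to 1.37), whereas sg-1 gave −0.026 and sg-2 0.010. After recovery sg-3 gave −0.18 ± 0.31 under vehicle and −0.033 ± 0.44 under IgA (SD, n = 4 per arm), so the reversal of the averaged value between culture and mouse rests on this guide.

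For Ifngr1 the difference was positive before injection on both scales, at 0.23 (0.19 to 0.28) relative to the median non-targeting sgRNA and 0.12 (0.075 to 0.17) relative to all sgRNAs. All 3 guides shared it, with 0.20, 0.26 and 0.24 on the first scale. Recovered cells had less, at 0.066 ± 0.058 in vehicle and 0.015 ± 0.055 in IgA mice on the first scale and 0.050 ± 0.059 and 0.011 ± 0.019 on the second (SD, n = 4 per arm). All 8 mice were below the starting value on either scale. For Ifngr2 the starting difference was 0.032 (−0.013 to 0.078) on the first scale and −0.078 (−0.12 to −0.033) on the second, so its sign was set by the reference. On the second scale 6 of 8 mice were above the starting value and on the first 0 of 8 were.

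**Figure D4:**
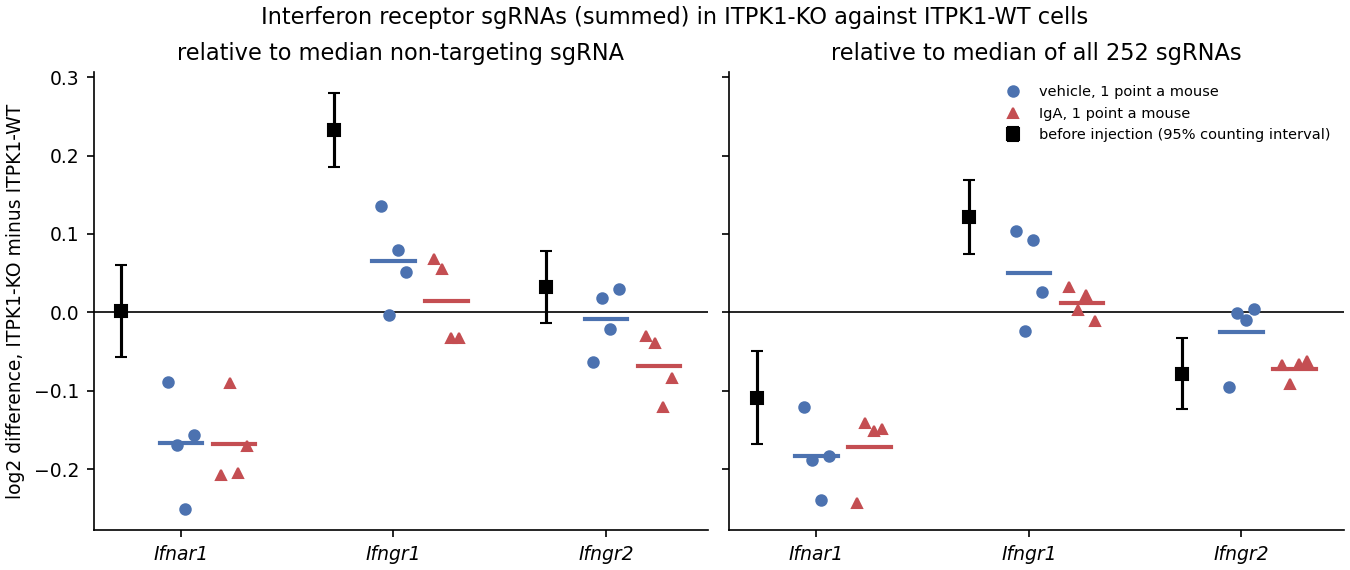
Log2 difference of summed guides, ITPK1-KO minus ITPK1-WT, before injection (black squares with 95% counting intervals) and in each mouse (circles, vehicle; triangles, IgA; bars, means of 4 mice), relative to the median non-targeting sgRNA (left) and to the median of all 252 sgRNAs (right). Ifnar1 lies between −0.089 and −0.25 in the mice on the left, where it started at 0.0018, and the starting points of all 3 genes are lower on the right.

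Set against the library from before injection of their own background, the summed receptor guides had moved by 0.12 or less in log2 mean after 16 h in the mouse. Both starting libraries were in the read-file series of mice 6 to 8. Changes in vehicle mice and in mouse 5 therefore cannot be told apart from the series. Relative to the median non-targeting sgRNA, the summed values in ITPK1-WT cells of vehicle mice were 0.053 ± 0.044 for Ifnar1, 0.044 ± 0.023 for Ifngr1 and −0.047 ± 0.051 for Ifngr2 (log2 change, SD, n = 4 mice). In ITPK1-WT cells of IgA mice they were 0.12 ± 0.041, 0.12 ± 0.056 and 0.013 ± 0.045. In ITPK1-KO cells all 3 were negative in all 8 mice, with −0.11 ± 0.087, −0.12 ± 0.057 and −0.088 ± 0.019 in vehicle and −0.048 ± 0.037, −0.099 ± 0.024 and −0.088 ± 0.026 in IgA mice. The median targeting sgRNA of ITPK1-KO cells had −0.077 in vehicle and −0.066 in IgA mice, against 0.0021 and 0.049 in ITPK1-WT cells. Single non-targeting sgRNAs (means of 4 mice) ran from −0.13 to 0.076 in vehicle and −0.30 to 0.20 in IgA mice for ITPK1-WT cells. For ITPK1-KO cells they ran from −0.14 to 0.051 and from −0.19 to 0.042. The summed means above lay inside these ranges. Relative to the median of all sgRNAs, the ITPK1-KO values shrank to between −0.043 and 0.013, and the ITPK1-WT values of Ifnar1 and Ifngr1 were positive in 4 of 4 mice of each arm (for Ifnar1 in vehicle mice, in 3 of 4 relative to the median non-targeting sgRNA).

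Other genes of interferon biology were counted from 3 lists. Of 19 genes of interferon signalling, the library targeted only the 3 receptor subunits, so the second type I chain Ifnar2 and the kinases Jak1, Jak2 and Tyk2 give no value here. The lists were chosen with earlier results of these data known, so their counts are descriptions. Of 12 cell death genes that interferons are known to raise, 8 were targeted. Under IgA in ITPK1-WT cells, 1 of the 8 was higher (Casp11, an inflammatory caspase, 0.094, edgeR adjusted p = 0.0329) and 1 lower (Zbp1, a nucleic acid sensor that can start necroptosis, −0.083, edgeR adjusted p = 0.000798). These 2 of 8 stand beside 36.8% of all 76 genes, and the list's median was −0.016 beside −0.0033. In ITPK1-KO cells 0 of the 8 passed, against 13.2% of all genes, with a median of 0.013 beside 0.0071. Zbp1 was also the 1 of 8 that passed in the difference of the IgA effect (0.090, edgeR adjusted p = 0.0155), where 6.58% of all genes did. Scaled to the non-targeting sgRNAs, both Zbp1 values kept their sign and missed the threshold (−0.031, edgeR adjusted p = 0.169, and 0.059, edgeR adjusted p = 0.190).

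Between backgrounds, 0 of these 8 death genes were higher and 2 were lower in vehicle mice, where 47.4% of all genes passed. In IgA mice 2 were higher and 2 lower, against 44.7% of all genes. The list's median was 0.0043 in vehicle mice (beside −0.00031 over all genes) and 0.010 in IgA mice (beside 0.0078). Daxx, a histone chaperone and regulator of apoptosis, had the largest difference of these lists (−1.18 in vehicle and −1.09 in IgA mice, edgeR adjusted p = 1.31e-29 and 7.44e-29). In IgA mice Casp1 (0.083) and Zbp1 (0.057) were higher in ITPK1-KO cells (edgeR adjusted p = 0.00102 and 0.00761), and neither passed when scaled to the non-targeting sgRNAs (edgeR adjusted p = 0.160 and 0.516).

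Of 20 other cytokine and death receptors, 9 were targeted, and 2 rose under IgA in ITPK1-WT cells, where 36.8% of all genes passed. These were Ltbr, the lymphotoxin beta receptor (0.090, edgeR adjusted p = 0.0105), and Tnfrsf1a, the main receptor for TNF (0.061, edgeR adjusted p = 0.0280). The list's median was 0.0097 beside −0.0033 over all genes, and the 3 interferon receptor subunits ran from 0.022 to 0.037; this difference was not tested. In ITPK1-KO cells 1 of the 9 passed, Ltbr (0.076, edgeR adjusted p = 0.0114), against 13.2% of all genes, with a list median of 0.033 beside 0.0071. Between backgrounds, 1 of the 9 was higher and 1 lower in vehicle mice, where 47.4% of all genes passed. In IgA mice 0 were higher and 1 was lower, against 44.7% of all genes. Cd27 was lower in ITPK1-KO cells in vehicle (−0.13, edgeR adjusted p = 6.86e-06) and IgA mice (−0.087, edgeR adjusted p = 0.00125), the 1 receptor of this list that passed in both arms. Tnfrsf25, a death receptor, was higher in vehicle mice (0.045, edgeR adjusted p = 0.0263, and 0.131 when scaled to the non-targeting sgRNAs).

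Genes were ranked by the distance of their summed guides from each receptor subunit over the 16 recovered libraries. The distance was the root mean square difference of log2 levels, centred within each background. It is also small between genes that hardly vary, so a near gene need not vary alike. For Ifnar1 the genes near it among 75 included Tnfrsf1a (0.030) and Foxi1 (0.036), where the median gene was 0.057 away. For Ifngr1 they included Alox12 (0.027) and Apaf1, which the files write as APAF1 (0.028), with a median of 0.044. For Ifngr2 they were Mlkl (0.021), Defb1 (0.021) and Casp12 (0.021), with a median of 0.039. The subunits were not each other's nearest genes. Ifngr2 ranked 17 of 75 from Ifngr1 (0.036), and Ifngr1 and Ifngr2 ranked 15 (0.046) and 29 (0.051) from Ifnar1. All distances share the same libraries and scaling.

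The authors' deposited tables give their own comparison of IgA with vehicle for each guide. In the authors' deposited table for ITPK1-WT cells, the log2 fold changes of the 9 guides ran from −0.12 (Ifnar1 sg-3) to 0.14 (Ifngr1 sg-2), all with an FDR of 0.998, and 0 sgRNAs of the library had an FDR under 0.05. Of the 9, 8 were positive in the authors' deposited table, where 74.6% of all sgRNAs were and the median was 0.055. In the authors' deposited table for ITPK1-KO cells the values ran from −0.024 (Ifngr2 sg-3) to 0.12 (Ifnar1 sg-1), with FDR values of 0.583 or more for the 9 guides and 12 sgRNAs of the library under 0.05. There 7 of the 9 were positive beside 61.9% of all sgRNAs, by the authors' deposited table.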

How the data were processed

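The libraries are sgRNA cassettes amplified from genomic DNA of sorted cells. The authors deposited raw counts, whole reads for each sgRNA; per the series' design text, mismatched reads were dropped after alignment to the library and MAGeCK RRA (version 0.5.6) did the scoring. The aligner was not named there. The authors also deposited, for each background, MAGeCK's log2 fold change (treated over vehicle) with its two-sided p-value and FDR per sgRNA. Those tables hold 4 further columns of joined per-sample values and 4 of means, which were not used. The deposited sequences and the sample legend have other units; the legend, not the sample labels, gave each mouse's arm and the cells sorted.

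R 4.3.3 and edgeR 4.0.16 were used for the counts, with TMM scaling, features of at least 10 mean reads, and quasi-likelihood tests with Benjamini-Hochberg adjustment over all sgRNAs or all genes (summed reads), threshold 0.05. IgA effects were fitted within a background, the other comparisons in 1 fit of the 16 recovered libraries. SEs are the log2 fold change over the square root of F. Levels before injection are log2 ratios to the library's median non-targeting sgRNA, with 0.5 reads added. Counting intervals are exact (95%) and take the reference as fixed. The fits were tested on simulated counts. No libraries of a group agreed within sampling noise.

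Both libraries of a mouse come from 1 animal, so mouse numbers pair them; same-mouse deviations correlated at −0.083 to 0.26 (238 sgRNAs, mean reads of 500 or more). The planned fit had no block.

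Members, gene lists, tests and the naming rule (all members and guides, list genes past the threshold, the 3 nearest genes) were chosen with earlier results of these data known. Some genes that the rule names are not reported here. Alternatives were scaling by DESeq2 size factors, total counts or non-targeting reads, no filter, DESeq2 1.42.0 (Wald), read-file series as covariate, mouse as block, each mouse left out, 1 fit for all libraries, limma 3.58.1 on means over sgRNAs, 5 reads added, and another reference. Ifnar1 without sg-3 was added after its reads were seen.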

Additional observations from a re-analysis of the deposited data

Results flagged for a closer look

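Over 48 groups of 4 mice (3 genes and 9 sgRNAs in 2 backgrounds and 2 arms), 1 held a mouse far from the rest by Dixon's test at the 95% level, where chance alone gives about 1 in 20 groups. In ITPK1-KO cells of vehicle mice, Ifngr2 stood at 13857.2 CPM in mouse 1, against 14228 to 14271 in mice 2 to 4 (a gap of 0.896 of the range). In ITPK1-WT cells of the same mouse Ifngr2 was the highest of the 4 vehicle mice, at 14798 CPM.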

How the results depend on the processing

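The Ifnar1 difference between backgrounds kept its sign and its call under every alternative run apart from the limma mean over sgRNAs in IgA mice, and values that changed sign (16 of 60, in 44 fits) included 0 that had passed. The number of member sgRNAs or genes past the threshold moved as follows. For IgA in ITPK1-WT cells, 0 sgRNAs became 1 with DESeq2 size factors, 1 with total counts, 3 with non-targeting scaling and 2 with the Wald test. Over the library 66, 66, 76 and 69 sgRNAs passed in that order, against 70 in the main fit. The 0 genes became 1, 1 and 3 under the first 3 of these settings, where 27, 28 and 36 genes of the library passed, against 28. Leaving out a mouse gave 0 to 1 of each, with 45 to 94 sgRNAs and 17 to 32 genes called over the library. For IgA in ITPK1-KO cells, 0 sgRNAs became 1 with non-targeting scaling and 0 to 1 over left-out mice. The library had 25 sgRNA calls under that scaling and 19 to 28 over left-out mice, against 26 in the main fit. Between backgrounds in vehicle mice, the 4 sgRNAs ran from 2 to 4 and the 2 genes from 1 to 2 over left-out mice, and with non-targeting scaling the sgRNAs became 3 and the genes 1, as the genes did with limma means. The library's calls ran from 69 to 85 sgRNAs and 29 to 38 genes over left-out mice. With non-targeting scaling they were 81 sgRNAs and 31 genes, against 80 and 36 in the main fit. In IgA mice 2 sgRNAs became 4 with non-targeting scaling and 2 genes became 1 with limma means. That scaling gave 81 sgRNA calls over the library, against 88 in the main fit. Library calls under limma means were not counted. The mouse as a replicate block (paired libraries) changed no call: Ifnar1 gave −0.18 in vehicle and −0.15 in IgA mice, Ifngr1 0.049 and Ifngr2 −0.055 where they had passed.

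Relative to the median of all sgRNAs, levels before injection were −0.47 (ITPK1-WT) and −0.57 (ITPK1-KO) for Ifnar1, 0.054 and 0.18 for Ifngr1, and 0.27 and 0.20 for Ifngr2. Changes from it were 0.076 (ITPK1-WT, IgA) and 0.013 (ITPK1-KO, IgA) for Ifnar1, −0.043 (ITPK1-KO, vehicle) and −0.037 (ITPK1-KO, IgA) for Ifngr1, and −0.033 (ITPK1-WT, IgA), −0.0086 (ITPK1-KO, vehicle) and −0.026 (ITPK1-KO, IgA) for Ifngr2.

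Signs turned as follows, and the cause was not tested. With non-targeting scaling, IgA values became 0.014 (Ifnar1 sg-3, ITPK1-KO), 0.046 (Ifngr2 sg-1, ITPK1-WT), 0.041 (Ifngr2 sg-3, ITPK1-WT), 0.0056 (Ifngr2 sg-2, ITPK1-KO) and 0.013 (Ifngr2, ITPK1-KO). The same scaling gave −0.0056 for Ifnar1 in the difference of the IgA effect, and, between backgrounds in IgA mice, −0.0071 (Ifngr1 sg-2), −0.030 (Ifngr1 sg-3) and −0.012 (Ifngr1). Ifngr2 sg-1 under IgA in ITPK1-WT cells was 0.00095 with DESeq2 size factors, 0.0014 with total counts and 0.00099 by the Wald test, which also gave 0.012 for Ifnar1 sg-3 in ITPK1-KO cells. Limma means gave −0.020 (Ifnar1, ITPK1-WT) and 0.0048 (Ifngr2, ITPK1-KO) under IgA. The read-file series as covariate gave 0.097 (Ifnar1 sg-3, ITPK1-KO), −0.025 (Ifngr1 sg-1, ITPK1-WT) and 0.018 (Ifngr2 sg-3, ITPK1-KO). Over left-out mice, ITPK1-WT values under IgA ran from −0.0014 to 0.025 (Ifngr1 sg-1), −0.040 to 0.035 (Ifngr2 sg-1) and −0.032 to 0.013 (Ifngr2 sg-3). In ITPK1-KO cells they ran from −0.095 to 0.077 (Ifnar1 sg-3), −0.026 to 0.010 (Ifngr2 sg-2) and −0.012 to 0.0021 (Ifngr2). The difference of the IgA effect ran from −0.046 to 0.011 (Ifnar1 sg-2). Between backgrounds, values ran from −0.043 to 0.021 (Ifngr1 sg-1, vehicle), −0.058 to 0.011 (Ifngr2 sg-3, vehicle), −0.13 to 0.16 (Ifnar1 sg-3, IgA) and −0.020 to 0.040 (Ifngr1 sg-3, IgA). Depth limits Ifnar1 sg-3, at 25 to 90 reads per library.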
